A study of Mus musculus with 24 samples.

Results

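The protein-protected sites (PPSs) described here are those found with a double-strand-specific RNase (dsRNase) in mouse MEL cells before and 2 days after the start of differentiation. A PPS is a stretch of RNA with more reads in footprinting libraries than in structure-only libraries. All PPSs of the day 0 and day 2 lists were kept that held at least 1 dsRNase call of replicate 1 or 2, and lengths of 20 to 40 nt, the size of a ribosome footprint, were left out. This gave 51107 PPSs at day 0 and 40398 at day 2, or 91505 of the 460777 PPSs of the whole series. Each PPS was assigned to the replicates named in its calls, so that there were 4 call sets. They held 27862 and 32624 PPSs at day 0 (replicates 1 and 2) and 30485 and 14832 PPSs at day 2.

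MEL cells are a murine erythroleukemia line held at an early erythroblast stage that matures along the red cell lineage when grown in 2% DMSO. Day 0 cells had no DMSO and day 2 cells had grown with it for 2 days, with 2 biological replicates of each. All cells were crosslinked with formaldehyde, and the 8 libraries used here were all cut with RNase V1, which cleaves paired RNA. In a footprinting library (labelled protein) the RNase acted while proteins were still bound, and in a structure-only library (labelled noprotein) proteins were removed first. MEL cells are 1 transformed line that keeps dividing, and DMSO is a chemical inducer, so both limit them as a model of normal red cell formation.

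RNase V1 destroys helices that are open to it, so a dsRNase PPS is RNA that a bound protein shielded from that cut. Double-stranded RNA is read by a large group of proteins, among them the microRNA processing enzymes Drosha and Dicer, the editing enzyme Adar and the helicase Dhx9. In erythroid cells, structured elements in messages set iron use and globin output, and the hairpin at the end of histone messages takes the place of a poly(A) tail. During terminal maturation cells make globin and heme, stop dividing and take apart most of their other RNA.

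The erythroid identity of the material was checked against 10 markers. Of these, 7 had an exonic dsRNase PPS in each day 0 call set and 8 in each day 2 call set, and their summed coverage was 90.5% and 79.6% at day 0 and 98.1% and 148.7% at day 2. The band 3 gene Slc4a1 held no dsRNase PPS in any call set. Of 10 myeloid markers, the Fc receptor gene Fcgr3 had 4.78% and 7.83% at day 0 and Prtn3 was present in day 0 replicate 1, which summed to 8.30% and 7.83%. None of them was present at day 2, and Mpo and Elane were at 0 throughout. Of 10 lymphoid markers, Ptprc alone was present, in day 0 replicate 1 (0.792%). Of 8 megakaryocyte markers, Pf4 and Itga2b were present in every call set, with a summed coverage of 21.9%, 25.2%, 14.8% and 23.0%, while Gp9 and Ppbp were at 0. The part of these cell types in the results was not tested.

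The sequences below show what the dsRNase sites looked like where they came and went. The first set is the 3′ hairpin of replication-dependent histone messages, with the 16 nt stem-loop in capitals. It was found with the letters GGNNCTTNTNANNNCC on the message strand in the 150 nt after the stop codon, where 0.110% of 21871 other protein-coding genes also held a match. The stem-loops shown, in build mm10, lie in the 3′ UTRs of Hist1h3a (chr13:23761890-23761905, minus strand), Hist1h1e (chr13:23621782-23621797, minus strand) and Hist1h2ai (chr13:21716839-21716854, plus strand), all 3 fully inside a PPS in both day 0 replicates and in neither day 2 replicate, and Hist1h3d (chr13:23576244-23576259, plus strand), which had the reverse pattern.
Hist1h3a: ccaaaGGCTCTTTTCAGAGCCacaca
Hist1h1e: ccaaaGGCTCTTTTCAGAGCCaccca
Hist1h2ai: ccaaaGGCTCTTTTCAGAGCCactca
Hist1h3d: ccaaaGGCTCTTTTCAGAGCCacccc
The 16 capital letters are the same in all 4 messages, and the flanks differ only in the last bases shown.

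The next set is from introns, and each is the highest-scoring intronic dsRNase PPS of a gene whose intronic sites changed most between the days. Capitals mark bases that are paired in the minimum free energy structure computed by RNAfold, which is a prediction for the isolated site. The Ank1 site (chr8:23054250-23054441, plus strand, 192 nt, 58.3% of bases paired) and the Sptb site (chr12:76706141-76706231, minus strand, 91 nt, 44.0% paired) were PPSs of day 2. The Car1 site (chr3:14807255-14807375, minus strand, 121 nt, 61.2% paired) was a PPS of day 0. The Sptb site held a dsRNase call of replicate 1 alone and the Car1 site of replicate 2 alone.
Ank1: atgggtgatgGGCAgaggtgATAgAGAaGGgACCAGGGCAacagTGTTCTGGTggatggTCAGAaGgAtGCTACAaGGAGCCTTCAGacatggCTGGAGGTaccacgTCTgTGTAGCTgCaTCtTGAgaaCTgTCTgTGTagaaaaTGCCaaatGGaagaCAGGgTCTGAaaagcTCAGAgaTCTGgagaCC
Sptb: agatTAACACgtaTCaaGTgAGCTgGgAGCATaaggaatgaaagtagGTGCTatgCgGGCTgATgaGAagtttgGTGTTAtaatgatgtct
Car1: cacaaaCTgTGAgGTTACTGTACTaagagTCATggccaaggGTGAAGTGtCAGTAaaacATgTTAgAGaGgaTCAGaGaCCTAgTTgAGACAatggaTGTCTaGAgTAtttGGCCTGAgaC

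The last set holds mature microRNAs of hairpins discussed below, with the seed (bases 2 to 8) in capitals and the sequences from RefSeq for assembly GRCm38.p6. They were chosen after their values were seen. The first 6 come from the Mir17-92 cluster on chromosome 14, where miR-17 and miR-20a share a seed and miR-19a and miR-19b share another.
miR-17-5p: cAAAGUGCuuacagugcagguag
miR-20a-5p: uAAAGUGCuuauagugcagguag
miR-18a-5p: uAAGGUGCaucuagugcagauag
miR-19a-3p: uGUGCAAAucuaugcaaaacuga
miR-19b-3p: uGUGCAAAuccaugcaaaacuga
miR-92a-3p: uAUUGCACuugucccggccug
miR-16-5p: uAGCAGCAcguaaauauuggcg
miR-451a: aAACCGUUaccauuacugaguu

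To ask how far the 2 replicates of a day agreed, the overlap of call sets was measured first. In day 0 replicate 1, 33.7% of dsRNase PPSs held a call of replicate 2 as well, and 28.7% of those of replicate 2 held a call of replicate 1. At day 2 the values were 16.1% of replicate 1 and 33.2% of replicate 2. Between the days, the share of a call set that overlapped a call set of the other day by 1 nt or more ranged from 13.8% to 30.3% over the 4 pairs. The ranges within and between days overlapped, so a single dsRNase site missing from 1 call set says little about the day. Of the 51107 dsRNase PPSs of day 0, 26.3% overlapped a dsRNase PPS of day 2, a further 18.4% overlapped only PPSs made of ssRNase calls, and 55.3% overlapped none.

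How often a site was found again differed by class of RNA. PPSs in genes of small RNAs (snoRNAs, snRNAs, microRNAs and the like) were the most lasting, and 89.8% of the 283 at day 0 overlapped a dsRNase PPS at day 2. Coding sequence (CDS) stood at 30.04%, 3′ UTRs at 27.3%, splice sites at 34.0%, exons of long noncoding RNAs (lncRNAs) at 36.6%, and PPSs lying wholly in introns at 16.99%. In the other direction 81.1% of the 323 small RNA gene PPSs of day 2 overlapped a dsRNase PPS of day 0, against 18.4% of intronic ones. Sites with dsRNase calls of both replicates were found again more often than the average, at 40.8% of 9379 for day 0 and 54.5% of 4919 for day 2.

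The distribution of dsRNase PPSs over transcripts was compared next. The 3′ UTR held a smaller share of dsRNase sites at day 2 in both replicates. The share of PPSs that touched a 3′ UTR was 31.3% and 28.4% at day 0 and 24.2% and 25.4% at day 2. The groups did not overlap, and the mean went from 29.9% ± 2.04 to 24.8% ± 0.838 (SD, n = 2), a change of -5.09 points and each of the 4 differences between single call sets of day 2 and day 0 lay between -7.12 and -3.05 points. With 2 call sets a day, the exact two-sided permutation test cannot give a p below 0.333, and that is the value here and for every measure below whose groups did not overlap. The 2 call sets of a day share the coordinates of merged PPSs, so their spread is smaller than that between fully separate replicates.

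CDS was the class touched most often in 3 of the 4 call sets, and its groups overlapped. The CDS share was 49.7% and 48.7% at day 0 and 43.5% and 53.0% at day 2. The share wholly in introns was 18.4% and 20.4% at day 0 and 27.3% and 17.6% at day 2, so that replicate 1 of day 2 lay above and replicate 2 below both day 0 values. The 5′ UTR share was 4.82%, 5.68%, 5.28% and 6.81%, also overlapping. Splice site PPSs, which contain an exon-intron boundary, made up 6.80% and 7.11% at day 0 and 6.69% and 6.79% at day 2, where the nearest values of the days lay far closer together than the day 0 replicates.

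Several small classes held a larger share at day 2. The share in small RNA genes was 0.747% and 0.736% at day 0 and 0.833% and 1.86% at day 2. Exons of lncRNAs held 1.26% and 1.44% at day 0 and 1.48% and 1.64% at day 2, and PPSs antisense to a gene were 1.17% and 1.33% against 1.42% and 1.44%. In each of these classes both day 2 values lay above both day 0 values. ssRNase PPSs of the same cells, used as a comparison, had 3′ UTR shares of 13.9% and 12.8% at day 0 and 13.5% and 13.5% at day 2, which overlapped. The difference between the nucleases was not tested.

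**Figure D1:**
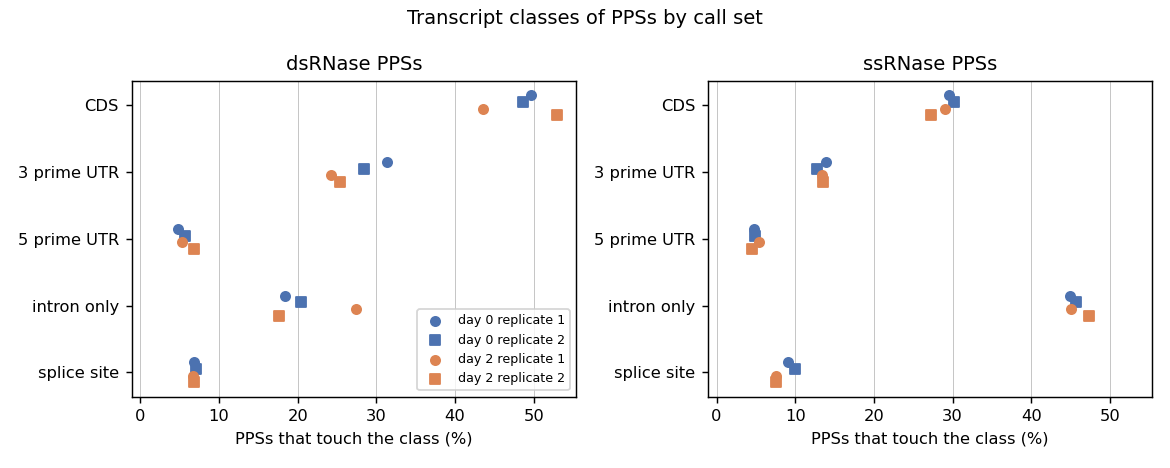
Share of PPSs (x axis, percent) that touched each transcript class (y axis), for dsRNase call sets on the left and ssRNase call sets on the right; blue marks day 0, orange day 2, circles replicate 1 and squares replicate 2, 1 point per call set. In the dsRNase panel the 2 orange 3′ UTR points (24.2% and 25.4%) lie left of both blue points (31.3% and 28.4%), while the CDS and intron only points of the days interleave.

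Position along the message was followed in 8165 protein-coding genes, using for each the transcript with the longest CDS. The mean percentage of positions inside a dsRNase PPS was 5.94% and 6.64% at day 0 and 4.81% and 3.13% at day 2 over the whole mRNA, so values were also divided by this mean. In the first 100 nt of the 3′ UTR the relative coverage was 1.199 and 1.106 at day 0 and 0.974 and 0.876 at day 2, a change of -0.228. Farther down, 300 to 400 nt past the stop codon, it was 0.862 and 0.783 at day 0 and 0.631 and 0.474 at day 2. Neither pair of groups overlapped, and the coverage of 3′ UTRs thus lay above the message average close to the stop codon at day 0 and below it at day 2.

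At the other end of the message the order was reversed. In the first 100 nt of the CDS the relative coverage was 1.197 and 1.353 at day 0 and 1.44 and 1.71 at day 2, a change of 0.302. Just upstream of the start codon, over the closing 100 nt of 5′ UTRs, it was 0.699 and 0.919 at day 0 and 1.01 and 1.03 at day 2. The last 100 nt of the CDS, just before the stop codon, had 1.45 and 1.37 at day 0 and 1.39 and 1.46 at day 2, which overlapped. In absolute terms the first 100 nt of the CDS were covered less at day 2 (6.94% and 5.36% of positions) than at day 0 (7.11% and 8.98%), so the gain was one relative to the rest of the message.

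**Figure D2:**
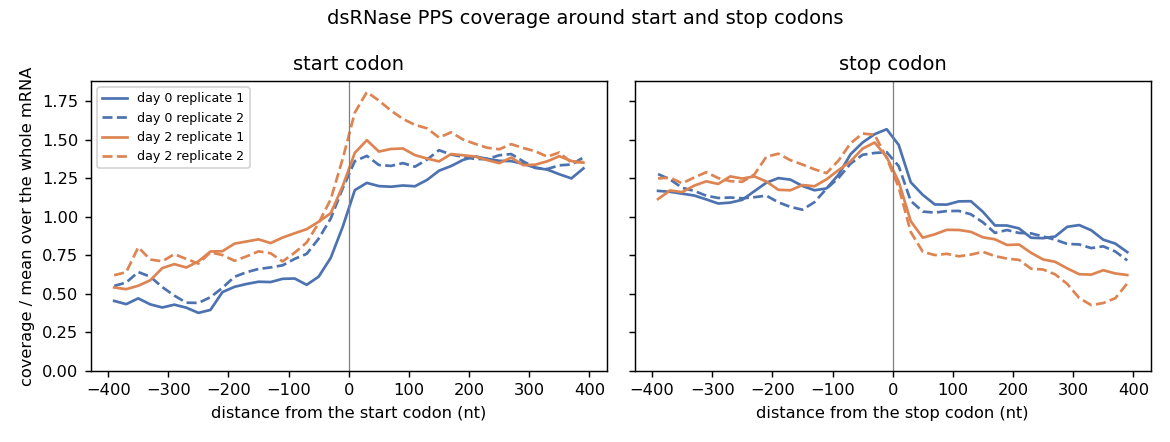
Coverage by dsRNase PPSs divided by the mean over the whole mRNA of the call set (y axis) against distance from the start codon (left) and stop codon (right) in nt; blue lines are day 0, orange lines day 2, solid replicate 1 and dashed replicate 2. The orange lines run above the blue ones around the start codon (1.44 and 1.71 against 1.197 and 1.353 in the first 100 nt of the CDS) and below them after the stop codon, where they fall to 0.631 and 0.474 at 300 to 400 nt.

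Base composition, which the choice of sites did not use, differed as well. The mean G content of dsRNase PPSs was 24.98% and 25.73% at day 0 and 27.1% and 28.3% at day 2, a change of 2.36 points without overlap. GC content was 44.7% and 46.1% at day 0 and 46.4% and 48.6% at day 2, and T content was 25.51% and 25.04% against 24.8% and 23.1%. Higher G was found within each class of RNA taken alone, with changes of 2.24 points in CDS PPSs, 2.35 in 3′ UTR PPSs, 2.78 in 5′ UTR PPSs and 2.18 in intronic PPSs. ssRNase PPSs also had more G at day 2 (29.7% and 28.7%) than at day 0 (27.5% and 27.8%), so both nucleases gave sites richer in G at day 2. PPSs with calls of both nucleases count in both sets, so these are not separate measurements.

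Predicted folds were more stable at day 2, but not at matched GC content. The mean minimum free energy of PPSs of 41 to 100 nt was -0.172 and -0.176 kcal/mol per nt at day 0 and -0.178 and -0.189 at day 2, where a lower value means a more stable fold. Within PPSs of 40 to 50% GC the values were -0.169, -0.166, -0.167 and -0.164, and within those of 50 to 60% GC they were -0.222, -0.219, -0.220 and -0.221. Both bands overlapped between the days. In PPSs of 30 to 40% GC the day 2 folds were slightly less stable, at -0.1212 and -0.1205 against -0.1229 and -0.1221. The share of repeat-masked bases was 6.36% and 5.88% at day 0 and 5.65% and 5.14% at day 2.

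Coverage of single genes was then compared. For each gene, the percentage of its exonic nucleotides inside a dsRNase PPS was taken in every call set, and a gene was called when both day 2 values lay on the same side of both day 0 values and the means differed by 5 points or more. Of 8217 protein-coding genes tested, 133 were higher at day 2 (1.62%) and 1027 were lower (12.5%). Mean coverage over these genes was 4.13% and 4.67% at day 0 and 3.42% and 2.22% at day 2, and day 2 replicate 2 had the fewest PPSs. When coverage was divided by the mean of its call set, 381 genes were higher and 448 lower, so the split between higher and lower genes depended on this scaling. PPS coverage also depends on how much of a message a cell holds, and less RNA, fewer bound proteins and fewer reads cannot be told apart in these lists.

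Called genes differed in make-up from the rest. The median GC content of exons was 53.5% for the genes called higher, 47.0% for those called lower and 48.7% for all tested. Median exonic length was 2046, 3498 and 4682 nt in the same order. The call asks for a fixed change in percent coverage, and a PPS of the same length covers a larger percentage of a shorter gene. Shorter genes thus passed the limit more easily, so the lengths cannot show a difference apart from the rule. Genes called lower had a median day 0 coverage of 11.7%, against 2.46% over all genes, and a gene can lose no more than it had.

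Globins had the largest share of members called higher. Of 4 globin genes tested, 3 were higher at day 2 (1.62% of all genes were), none was lower, and the median change was 18.5 points, against -0.754 over all genes tested. With dsRNase-only PPSs the list stood at 1 higher and 1 lower of 3. The α-globin gene Hba-a1 (chr11:32283511-32284465, plus strand) had 15.2% and 19.8% of its exonic nucleotides covered at day 0 and 27.2% and 45.1% at day 2, but when only PPSs made wholly of dsRNase calls were kept its change became -12.1 points. Hba-a2, its near-identical copy, was at 0% in both day 0 sets and at 24.3% and 12.4% at day 2, and its change was 0 with dsRNase-only PPSs. The adult β-globin gene Hbb-bs (chr7:103826534-103828096, minus strand) was also at 0% in both day 0 sets and reached 11.1% and 29.4%, and its change was 0 with PPSs of both replicates only. Hbb-bt had 0%, 12.9%, 12.1% and 30.2%, and its groups overlapped. Reads with up to 10 genomic hits were kept by the authors, so the values of the α-globin pair and of Hbb-bs and Hbb-bt may share reads.

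Heme and iron genes moved in both directions. Of 8 heme synthesis enzymes tested, 2 were higher and none lower. Ppox, the next to last enzyme of the pathway, had 0% and 7.66% at day 0 and 13.5% and 10.8% at day 2, but its change was -0.454 with dsRNase-only PPSs and its call was lost without day 0 replicate 1. Alas2, which starts heme synthesis in erythroid cells, had 16.5%, 7.87%, 12.5% and 8.70%, which overlapped.

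Of 18 iron genes, 2 were higher (11.1%, against 1.62% of all genes) and 4 lower (22.2%, against 12.5%). Slc25a37 (mitoferrin), which carries iron into mitochondria, had 7.44% and 2.59% at day 0 and 19.2% and 12.1% at day 2. Its partner Abcb10, a mitochondrial transporter, had 5.76% and 2.30% against 11.9% and 7.97%. The transferrin receptor Tfrc (chr16:32608920-32632794, plus strand) fell, from 19.7% and 17.7% to 6.21% and 6.13%. Pcbp1, an RNA-binding protein that also carries iron, had 33.1% and 25.1% at day 0 and 17.7% and 12.8% at day 2, a change of -13.9 that became 6.20 with dsRNase-only PPSs.

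Iron-responsive elements, hairpins bound by the iron regulatory proteins, were searched in the UTRs of 9 listed messages as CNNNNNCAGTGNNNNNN with 5 paired bases around the loop, and 9 were found. The element of Ftl1, the ferritin light chain, lay fully inside a dsRNase PPS in day 0 replicate 1 and in both day 2 replicates, but not in day 0 replicate 2. Of the 4 elements in the Tfrc 3′ UTR, 2 were covered in day 0 replicate 2 and none in the other 3 call sets. Those of Fth1, Alas2 and Slc40a1 were outside dsRNase PPSs in all 4 sets. Covered elements of these genes are shown with the loop in capitals, for Ftl1 (chr7:45459785-45459801, minus strand) and for the second and the last element of Tfrc (chr16:32631604-32631620 and chr16:32631716-32631732, plus strand).
Ftl1: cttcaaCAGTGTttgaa
Tfrc, second: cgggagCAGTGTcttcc
Tfrc, last: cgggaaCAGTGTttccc
No element was covered in both replicates of 1 day and in neither of the other.

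Regulators of the erythroid programme were more often lower than higher, as were genes in general. Of 16 erythroid transcription factors, 1 was higher (6.25%, against 1.62% of all genes) and 5 were lower (31.2%, against 12.5%). The median change was -1.62 points, and the median day 0 coverage of the list was 8.58%, against 2.46% over all genes. Zfpm1 (FOG1), the cofactor of GATA1, rose from 3.31% and 4.03% to 15.6% and 16.9%. Lmo2 (chr2:103957986-103981878, plus strand), which bridges the TAL1 and GATA1 complex, fell from 23.68% and 25.99% to 3.001% and 5.679%. Bcl11a, the repressor of fetal-type globin genes, fell from 11.5% and 20.8% to 4.90% and 1.37%. When coverage was divided by the mean of the call set, the list stood at 3 higher and 3 lower.

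In the red cell membrane list, none of 17 genes tested was higher and 2 were lower, a share of 11.8% where all genes had 12.5%, and the median change was 0.406 points. Divided by the mean of the call set, 5 were higher and 2 lower, and without day 2 replicate 2, 4 of 16 were higher and 2 lower. The Rh-associated glycoprotein Rhag had 28.2% and 29.2% at day 0 and 12.5% and 6.20% at day 2, and the blood group protein Ermap had 12.8% and 21.7% against 4.12% and 2.49%. Of 16 genes of terminal maturation, 1 was higher and 2 were lower, and the share lower was 12.5%, as over all genes. The erythropoietin receptor Epor rose from 11.6% and 7.79% to 19.7% and 20.8%. The carbonic anhydrase Car1 (chr3:14766216-14808368, minus strand) fell from 33.4% and 24.3% to 5.53% and 8.89%. The catalase gene Cat was lower as well (7.31% and 9.80% against 3.52% and 1.84%), but its change was 0.689 when equal numbers of top-scoring PPSs were taken from each call set.

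Genes of dividing progenitors were called in the lower direction only. Of 13 progenitor and leukaemia regulators, 6 were lower and none higher, where all genes had 12.5% lower and 1.62% higher. The 6 were 46.2% of the list, and its median change was -5.82 points. The median day 0 coverage of the list was 6.58%, against 2.46% over all genes. The proto-oncogene Myc had 27.0% and 32.0% at day 0 and 6.88% and 15.8% at day 2. Trp53 (chr11:69580359-69591873, plus strand), the p53 gene, had 8.26% and 12.7% at day 0 and no dsRNase PPS at day 2, and its day 0 sites lay mainly in the CDS (19.7% and 37.1% of it). Divided by the mean of the call set, 1 gene of this list was lower and none higher.

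Of 24 genes of DNA replication, 8 were lower (33.3%, against 12.5% of all genes) and none higher. Their median day 0 coverage was 8.33%, against 2.46% over all genes. The helicase subunit Mcm4 (chr16:15623897-15637400, minus strand) had 28.7% and 30.1% at day 0 and 2.95% and 0% at day 2. Mcm7, another subunit of the same ring, had 18.1% and 18.0% against 1.83% and 4.79%. The flap endonuclease Fen1 had 19.7% and 24.9% against 6.73% and 4.38%. Under division by the call set mean, 5 of the 24 were lower and 1 higher.

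**Figure D3:**
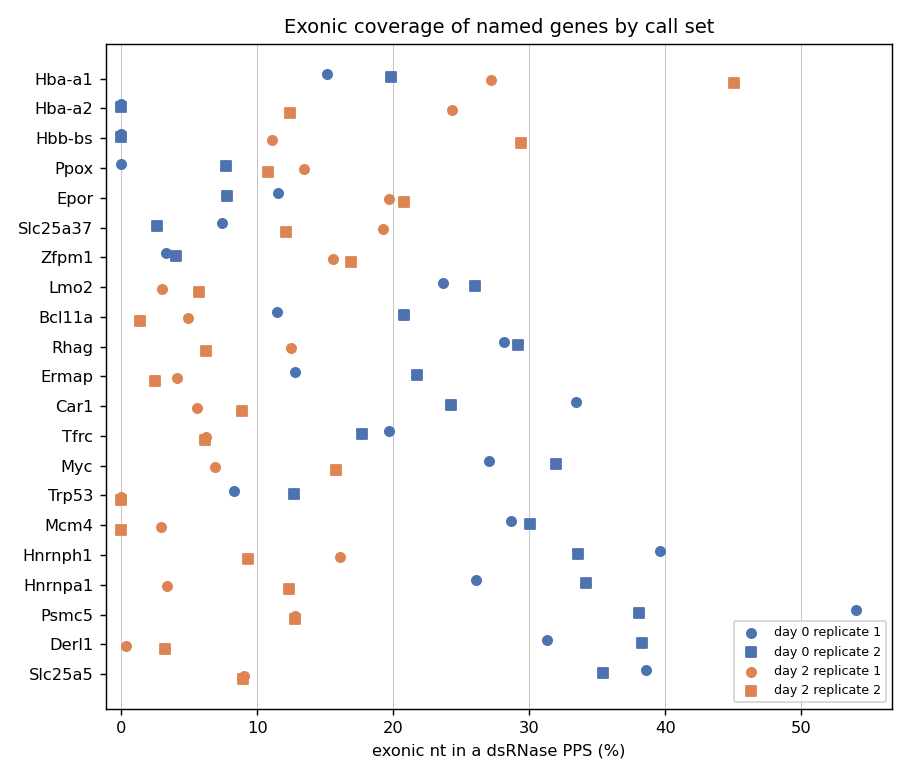
Percentage of exonic nucleotides inside a dsRNase PPS (x axis) for 21 named genes (y axis); blue marks day 0, orange day 2, circles replicate 1 and squares replicate 2, 1 point per call set. Globin genes, Ppox, Epor, Slc25a37 and Zfpm1 have both orange points right of both blue ones, while in Lmo2 and the genes beneath it the orange points lie to the left, as in Mcm4 (2.95% and 0% against 28.7% and 30.1%).

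Messages of splicing regulators had the highest share of falls among the lists drawn with 6 or more tested members. Of 34 SR proteins and hnRNPs, which control splicing and RNA export, 19 were lower (55.9%, against 12.5% of all genes) and 1 was higher. The median change was -7.15 points, and the median day 0 coverage of the list was 15.7%. Hnrnph1 (chr11:50376990-50386528, plus strand) fell from 39.6% and 33.6% to 16.1% and 9.31%, and its 3′ UTR from 66.8% and 73.5% to 29.5% and 0%. Hnrnpa1 had 26.1% and 34.2% against 3.36% and 12.3%, and Hnrnpu had 27.4% and 32.9% against 15.2% and 10.9%. On the scale divided by the call set mean, 9 were lower and 5 higher. Magoh, a core protein of the exon junction complex that marks spliced messages, had the largest fall among the protein-coding genes named by size, from 42.6% and 35.6% to 9.22% and 0%.

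Proteins that bind double-stranded RNA had few called messages. Of 23 tested, 3 were lower and none higher, close to the share of all genes (13.0% against 12.5% lower). Drosha, which cuts primary microRNAs, had 14.6% and 14.0% at day 0 and 7.01% and 4.62% at day 2. The helicase Dhx9 had 13.2% and 10.1% against 5.76% and 5.44%, and Mrpl44, a mitochondrial ribosomal protein with a double-stranded RNA-binding fold, had 7.73% and 7.30% against 0% and 0%. Dicer1 (2.49%, 2.64%, 6.23% and 0.890%) and Adar (4.09%, 5.89%, 4.78% and 3.75%) overlapped between the days.

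Messages of the protein-making and protein-degrading machinery also had more falls than the background, but they started from higher coverage. The median at day 0 was 9.96% for proteasome subunits and 9.66% for translation factors, against 2.46% over all genes. Of 29 proteasome subunits, 14 were lower (48.3%, against 12.5% of all genes) and none higher, with a median change of -5.17 points. The ATPase subunit Psmc5 (chr11:106256154-106263120, plus strand) had 54.0% and 38.1% at day 0 and 12.8% in both day 2 sets. Psma6, a subunit of the core particle, had 33.2% and 44.3% against 14.5% and 18.4%. Of 18 translation factors, 8 were lower (44.4%) and none higher. Among the 8 was Eif2s3x, a subunit of the factor that brings the initiator tRNA, with 21.2% and 19.9% against 12.01% and 2.597%. Scaled to the call set mean, the proteasome stood at 2 higher and 5 lower and the translation factors at 3 higher and 3 lower.

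Of 63 cytosolic ribosomal protein genes, 1 was higher and 19 were lower (30.2%, against 12.5% of all genes). Their median day 0 coverage was 9.57%, against 2.46% over all genes. Rpl15 (chr14:18267823-18271391, minus strand) fell from 20.02% and 26.65% to 8.41% and 4.00%, and its CDS from 72.2% in both day 0 sets to 0% and 16.2%. Rpl36al had 29.5% and 29.1% at day 0 and 9.02% and 0% at day 2, and Rpl10a had 28.4% and 34.3% against 12.1% and 16.3%. Many of these genes have processed pseudogenes with near-identical sequence, so their values are uncertain. Scaled to the call set mean, 11 were higher and 11 lower.

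**Figure D4:**
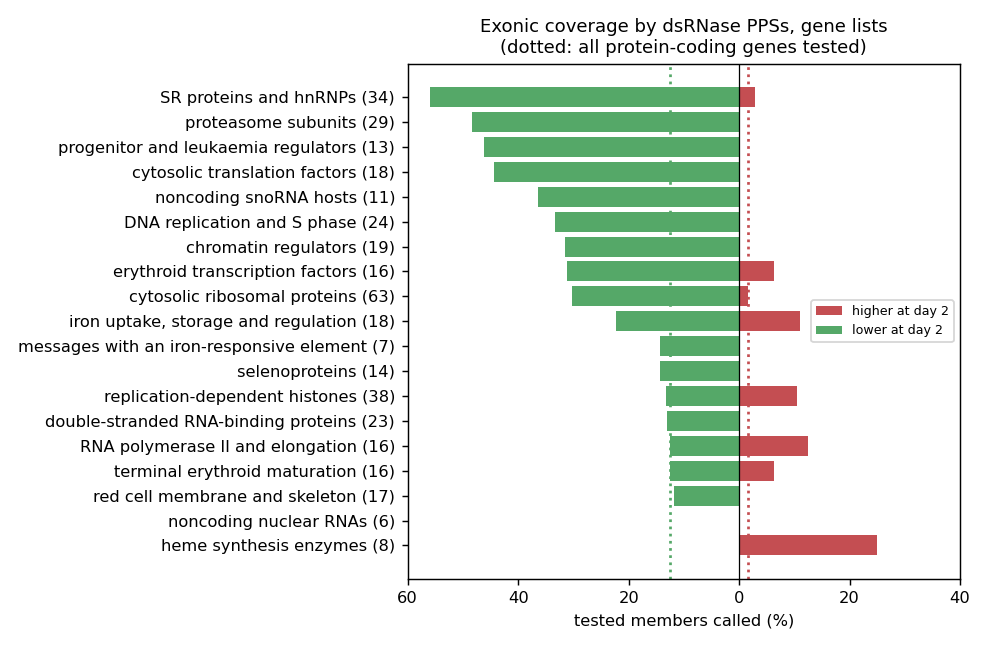
Percentage of the tested members of each gene list (y axis, number tested in brackets; lists with 6 or more tested members) that were called higher (red, to the right) or lower (green, to the left) at day 2; the dotted lines mark 1.62% higher and 12.5% lower over all 8217 genes. SR proteins and hnRNPs (19 of 34 lower) and proteasome subunits (14 of 29 lower) reach farthest to the left, and heme synthesis enzymes (2 of 8 higher) farthest to the right.

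Of 19 chromatin regulators 6 were lower (31.6%, against 12.5% of all genes) and none higher, among them the chromatin remodeller Smarca5 with a change of -7.59 and the histone methyltransferases Kmt2d and Kmt2c with changes of -8.12 and -7.51. The median day 0 coverage of this list was 5.49%, against 2.46% over all genes. Divided by the call set mean, none of the 19 was lower and 1 was higher, so all 6 falls were lost, and Kmt2d and Kmt2c also lost their calls with dsRNase-only PPSs (-2.06 and -2.03). Of 16 RNA polymerase II and elongation genes 2 were higher and 2 lower (12.5% each, against 1.62% and 12.5% of all genes). Polr2a, the largest subunit, had 8.36% and 13.6% at day 0 and 2.21% and 3.52% at day 2, and the elongation factor Paf1 had 4.07% and 0% against 8.44% and 7.80%, a change of 6.08 that became -0.771 with dsRNase-only PPSs. Of 14 selenoprotein messages, which carry a UGA-recoding hairpin in the 3′ UTR, 2 were lower (14.3%, against 12.5% of all genes) and none higher. Divided by the call set mean, 3 were higher and 1 lower. Selenot had 25.90% and 21.04% against 7.04% and 0%, and Sephs2, which makes the selenium donor, had 11.8% and 12.5% against 7.81% and 2.99%, a change that became 2.78 with dsRNase-only PPSs.

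The genes with the largest changes outside the lists were of mixed function. The largest rise was in Ndufb6, a subunit of mitochondrial complex I, which had 0% and 22.3% at day 0 and 41.3% and 30.2% at day 2. The UFM1-specific protease Ufsp1 had no dsRNase PPS at day 0 and 29.2% and 18.5% coverage at day 2, and Tmem50a had 0% and 3.94% against 28.1% and 17.2%. Chmp2a, a part of the ESCRT machinery that remodels membranes, had 4.56% in both day 0 sets and 20.3% and 26.2% at day 2. Among falls, the ER-associated degradation protein Derl1 went from 31.3% and 38.3% to 0.361% and 3.24%, the ADP/ATP carrier Slc25a5 from 38.6% and 35.4% to 8.99% and 8.93%, and the glycolytic enzyme Pgam1 from 34.4% and 33.1% to 0.605% and 12.3%.

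Histone messages changed in their bodies and in their 3′ hairpins. Of 38 replication-dependent histone genes, 4 were higher (10.5%) and 5 lower (13.2%), where all genes had 1.62% and 12.5%, and the median change was -0.199 points. The direction of the list depended on the processing. It stood at 11 higher and 2 lower divided by the call set mean, 11 and 4 of 36 with equal numbers of top-scoring PPSs, 2 and 10 with dsRNase-only PPSs, and 4 and 15 without day 2 replicate 2. Hist1h3e had 8.73% in both day 0 sets and 30.4% in both day 2 sets, and the linker histone Hist1h1a had 47.2% in both day 0 sets and 66.9% in both day 2 sets. The linker histone Hist1h1b had 42.8% and 54.2% at day 0 and 30.4% and 30.7% at day 2. With dsRNase-only PPSs, Hist1h3e changed by -8.73 and Hist1h1b by 12.3, so both directions turned, and Hist1h1b also turned to 1.38 on the scale divided by the call set mean. These genes are near-identical copies, and reads may be shared among them.

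The stem-loop at the end of histone messages was touched by dsRNase PPSs less often at day 2. Of 65 stem-loops found, 13 were touched in each day 0 call set and 3 and 2 in the day 2 sets. The number fully covered was 6 and 7 at day 0 and 2 and 2 at day 2. At day 4 the dsRNase sets touched 7 and 6, between the 2 earlier days. In ssRNase sets the stem-loops were touched 0, 0, 2 and 0 times over the same 4 samples, so at day 0 no ssRNase PPS touched this hairpin. The mean dsRNase coverage of 3′ UTRs over 8198 genes also fell, from 4.72% and 4.89% at day 0 to 3.14% and 1.83% at day 2. Whether the stem-loops fell more than 3′ UTRs in general was not tested. The sequences of Hist1h3a, Hist1h1e and Hist1h2ai given above are examples of those covered at day 0 and not at day 2, and Hist1h3d of the reverse. At day 4 the Hist1h1e stem-loop was fully covered in replicate 2, and 8 nt of that of Hist1h2ai were covered in replicate 1.

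Fewer microRNA hairpins were touched at day 2, in counts not scaled to the size of the call sets. Of 1005 hairpins, dsRNase PPSs touched 22 and 29 at day 0 and 21 and 19 at day 2, and fully covered 12 and 12 against 7 and 8, without overlap in either count. The call sets held 27862 and 32624 PPSs at day 0 and 30485 and 14832 at day 2. Differences of this size cannot be told apart from the size of the sets. The main change of layout was in Mir17hg (chr14:115042879-115046727, plus strand), the host of the Mir17-92 cluster, whose exonic coverage was 68.7% and 82.6% at day 0 and 43.8% and 28.2% at day 2. At day 0 a single PPS of 1404 nt (chr14:115043548-115044951), the merger of 12 dsRNase and 16 ssRNase calls, ran over all 6 hairpins. At day 2 the hairpins of miR-17, miR-20a and miR-19b were still fully inside dsRNase PPSs of both replicates and that of miR-92a was 96.3% covered, while those of miR-18a and miR-19a lay in none. The miR-19a hairpin was then fully inside ssRNase PPSs of both replicates. Mir17hg shares exonic positions with other annotated genes. In the merged lists of day 2, miR-19a and miR-19b, which share a seed, were thus split, and miR-17 and miR-20a were not. The lists do not place single calls inside a merged PPS. Whether the hairpins of miR-18a and miR-19a held a dsRNase call at day 0 is therefore not known. With dsRNase-only PPSs the change of Mir17hg was -1.97 points.

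Outside the cluster, the hairpin of miR-16 (Mir16-1, chr14:61631880-61631972, minus strand) was fully covered in both day 0 sets, in neither day 2 set and again in both day 4 sets. Mir146b was 80.7% covered in both day 0 sets and in neither day 2 set. With ssRNase PPSs, 0% and 80.7% of it was covered at day 0 and 56.9% in both day 2 sets. The erythroid microRNA hairpin Mir451a (chr11:78073170-78073241, plus strand), which is cut by Ago2 in place of Dicer, was outside dsRNase PPSs at day 0, fully inside one in day 2 replicate 1 and outside in replicate 2. At day 4 it was 81.9% covered in both replicates.

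Many small nucleolar RNAs were touched on both days. Of 98 C/D box snoRNA genes, which guide methylation of ribosomal RNA, 45 and 51 were touched at day 0 and 50 and 55 at day 2. Of the 60 touched in any of the 4 sets, 35 were touched in all of them, and the same held for 18 of 33 H/ACA box snoRNAs and 11 of 26 scaRNAs. None of the C/D box genes was touched in both day 0 sets and neither day 2 set, and Snord2 and Snord49b were fully covered in both day 2 sets and neither day 0 set. The Snord49b gene (chr11:62603079-62603150, plus strand) is shown with its C and D boxes, the motifs that bind the snoRNP proteins, in capitals.
Snord49b: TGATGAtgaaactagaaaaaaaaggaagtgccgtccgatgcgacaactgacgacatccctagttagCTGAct
Both snoRNAs lay fully inside ssRNase PPSs at both days, so their change is one of the nuclease under which the site was called.

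Of 11 noncoding hosts of snoRNAs tested, 4 were lower (36.4%, against 7.1% of all lncRNA genes) and none higher. The median day 0 coverage of these hosts was 24.0%. Snhg3 fell from 24.5% and 23.5% to 8.22% and 9.53% of exonic nucleotides, Gas5 from 65.3% and 62.6% to 48.0% and 50.6%, and Snhg8 from 26.6% in both day 0 sets to 17.9% in both day 2 sets. On the scale divided by the call set mean, Gas5 changed by 13.8 and Snhg8 by 2.16, so their direction turned, and Gas5 shares exonic positions with other genes. Of 6 nuclear noncoding RNAs none was called. Malat1 had 61.6%, 58.2%, 45.2% and 70.1%, which overlapped, and Neat1, the scaffold of paraspeckles, had 10.1% and 13.3% against 8.67% and 6.14%, a change of -4.29 that was under 5 points.

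Over all lncRNA genes, 3 of 324 were higher (0.926%) and 23 were lower (7.1%). The 3 were Gm11944 (0% and 0% at day 0, 14.0% and 7.68% at day 2), Gm44187 (0% and 0% against 6.74% in both day 2 sets) and Gm15265 (0% and 5.34% against 9.34% in both day 2 sets). The largest falls beside Mir17hg were Gm15726, from 85.3% and 57.8% to 5.50% and 27.3%, and 1700016F12Rik, from 27.8% and 43.1% to 0% in both day 2 sets. ssRNase PPSs covered Gm15726 at 85.3% in both day 0 sets and 81.1% in both day 2 sets.

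Intronic sites were compared as counts. The number of PPSs lying wholly in introns was counted per gene and expressed per 10000 PPSs of the call set, and a gene was called when the days did not overlap and the means differed 1.5 times or more, with 0.5 added to both. Of 604 genes with 5 or more such PPSs in at least 1 set, 159 were higher at day 2 (26.3%) and 101 were lower (16.7%). A gene with few such PPSs on 1 day was tested through the other day alone, so the limit left it little room for the other direction. Ank1, the ankyrin that ties the spectrin skeleton to the membrane, held 0 and 1 intronic dsRNase PPSs at day 0 and 26 and 10 at day 2, or 8.53 and 6.74 per 10000 at day 2. Sptb, erythroid β-spectrin, held 0 and 1 at day 0 and 23 and 10 at day 2. Both day 2 replicates were thus far above both day 0 replicates, and the Ank1 and Sptb sequences above are taken from these sites.

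The same genes were looked at with the ssRNase and at day 4. Introns of Sptb held 4 and 2 PPSs made only of ssRNase calls at day 0 and 76 and 90 at day 2, and those of Ank1 held 13 and 26 against 55 and 76. At day 4 the dsRNase sets had 22.4 and 21.4 intronic PPSs per 10000 in Sptb and 13.8 and 9.95 in Ank1. Both nucleases thus gave more intronic sites in these genes at day 2, and the day 4 values lay above those of day 2.

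Of 8 red cell membrane genes with enough intronic PPSs, 5 were higher and none lower, where 26.3% and 16.7% of the 604 genes were. Besides Ank1 and Sptb these were the glycophorin Gypc (1 and 0 PPSs at day 0, 11 and 4 at day 2), the adducin Add1 (1 and 0 against 6 and 2) and the Kell blood group gene Kel (0 and 1 against 6 and 2). All 5 held 0 or 1 in each day 0 set. They were thus tested through day 2 alone, which left no room for a fall. In exons none of the 5 was called, and Ank1 had 3.14% and 6.97% at day 0 and 11.5% and 7.83% at day 2. Of 8 erythroid transcription factors 4 were higher and 1 lower, beside the same shares over the 604 genes. Zfpm1 had 18 and 19 at day 0 and 30 and 30 at day 2, and Tal1, a founder of the erythroid programme, had 1 and 2 against 6 and 4. Bcl11a had 28 and 47 at day 0 and 16 and 8 at day 2, the same direction as its exons.

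Both mitochondrial iron genes named above also had more intronic sites at day 2. Slc25a37 held none at day 0 and 6 and 1 at day 2, and Abcb10 held 0 and 1 against 6 and 3. The other large rises were in Prkar2b, a regulatory subunit of protein kinase A, with 0 and 0 against 25 and 8, the tetraspanin Tspan33 with 0 and 0 against 8 and 4, and Tango2 with 0 and 0 against 10 and 3. These counts are small, these genes were tested through their day 2 counts alone, and a set with no PPS gives no fold.

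Falls were led by Car1, whose introns held 15 and 16 dsRNase PPSs at day 0 and 1 and 0 at day 2. Fut8, which adds the core fucose to glycans, had 13 and 21 against 3 and 0. Mia2 had 9 and 11 against 1 and 0, Cmc1 6 and 7 against 0 and 0, and the phosphatase-like gene Ubash3b 6 and 6 against 0 and 0. All of these genes were tested through their day 0 counts alone. Mia2 and Cmc1 lost their calls with dsRNase-only PPSs, and Ubash3b with equal numbers of top-scoring PPSs. The highest-scoring Cmc1 site was wholly repeat-masked. Car1 fell in introns and exons alike. Day 2 replicate 1 held a larger share of intronic PPSs than the other sets, and leaving it out changed the counts to 60 genes higher and 188 lower. Leaving out day 2 replicate 2 changed them to 275 higher and 92 lower.

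**Figure D5:**
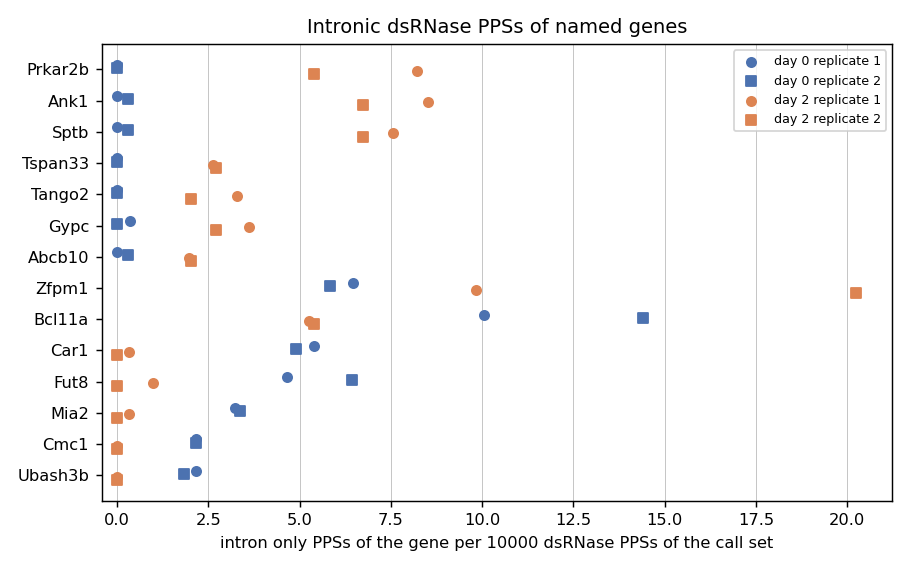
Number of PPSs wholly in introns of a gene per 10000 dsRNase PPSs of the call set (x axis) for 14 named genes (y axis); blue marks day 0, orange day 2, circles replicate 1 and squares replicate 2, 1 point per call set. Ank1 (8.53 and 6.74) and Sptb (7.55 and 6.74) have both orange points far from the blue points near 0, and Car1 has the reverse (5.38 and 4.90 at day 0, 0.328 and 0 at day 2).

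Single strong sites complete the comparison. The highest-scoring dsRNase PPS of each day lay in an intron of Pfkp, the platelet phosphofructokinase gene, at chr13:6607857-6610305 on the minus strand at day 0 (2449 nt, score 449) and at chr13:6606406-6607524 at day 2 (1119 nt, score 244). Both were almost wholly repeat-masked, at 97.7% and 98.5% of bases. The score is the enrichment value given by the authors, and its scaling between days is not stated.

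Of the 9379 PPSs with dsRNase calls of both replicates at day 0, 3017 (32.2%) overlapped no PPS of either nuclease or any length at day 2. Of 4919 at day 2, 1154 (23.5%) overlapped none at day 0. The highest-scoring among the first were in the 3′ UTR of Ogt (chrX:101683859-101683920, plus strand, score 55.9), which adds O-GlcNAc to proteins, an intron of the mitochondrial ribosomal gene Mrps27 (chr13:99389682-99389873, plus strand, score 54.4) and the CDS of Gml2 (chr15:74824029-74824211, plus strand, score 53.7). Among the second were the CDS of Tex19.2 (chr11:121117372-121117548, minus strand, score 95.9) and the 3′ UTRs of Gpr89 (chr3:96868874-96869001, minus strand, score 67.3) and Pigk (chr3:152786422-152786805, plus strand, score 66.9), an enzyme of GPI-anchor attachment. The Mrps27 and Tex19.2 sites are shown because they are the strongest lost intronic and gained coding site, with bases paired in the RNAfold prediction in capitals (60.4% and 64.4% of bases).
Mrps27: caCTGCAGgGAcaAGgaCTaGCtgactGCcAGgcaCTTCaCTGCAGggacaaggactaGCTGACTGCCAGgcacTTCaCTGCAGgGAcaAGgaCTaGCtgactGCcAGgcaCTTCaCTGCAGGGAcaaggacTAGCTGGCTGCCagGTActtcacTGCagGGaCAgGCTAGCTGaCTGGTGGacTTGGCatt
Tex19.2: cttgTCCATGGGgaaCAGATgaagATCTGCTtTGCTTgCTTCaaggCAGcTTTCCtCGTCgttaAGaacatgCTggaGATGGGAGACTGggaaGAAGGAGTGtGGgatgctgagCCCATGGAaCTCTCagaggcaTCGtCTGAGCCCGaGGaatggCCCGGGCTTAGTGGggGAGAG

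The same call was applied to ssRNase coverage for comparison. A merged PPS with calls of both nucleases counted in both coverages, and 41.1% to 53.3% of dsRNase PPSs held ssRNase calls. Agreement between the nucleases is thus partly built in and is not a separate measurement. Of 8831 genes tested, 479 were higher and 479 lower (5.42% each). Of the 1027 genes lower with dsRNase, 235 were lower and 31 higher with ssRNase, and of the 133 higher with dsRNase, 49 were higher and 3 lower. Hba-a1, Hba-a2, Ppox, Epor, Slc25a37 and Zfpm1 were higher with both nucleases, while Hbb-bs overlapped between the days with ssRNase (6.51%, 3.91%, 23.6% and 5.08%). Lmo2, Bcl11a, Rhag, Hnrnph1 and Hnrnpa1 were lower with both. Mcm4, Psmc5, Derl1, Trp53 and Myc were lower with dsRNase and not called with ssRNase, and the difference between nucleases was not tested for them. When only PPSs made wholly of dsRNase calls were kept, many calls were lost. The changes of Hba-a2, Snhg3, Snhg8, Gm44187 and Gm15726 became 0. Those of Ufsp1 (5.35), Zfpm1 (4.03), Epor (2.54), Chmp2a (2.02), Slc25a37 (1.34), Hnrnph1 (-4.07), Polr2a (-3.88), Bcl11a (-3.10), Rpl10a (-2.43), Trp53 (-2.15), Mir17hg (-1.97), Gas5 (-0.904) and Dhx9 (-0.193) kept their sign and were no longer called. With equal numbers of top-scoring PPSs, Ndufb6, Psmc5, Psma4, Mrpl44, Dhx9 and Polr2a lost theirs.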

How the data were processed

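PIP-seq compares reads of libraries digested before and after proteins were removed. According to the study's methods, the authors trimmed reads with cutadapt 1.2.1, aligned them to mm10 with TopHat2 2.0.10 allowing up to 10 hits per read, and called PPSs with a modified CSAR package (a Poisson test of footprinting against structure-only libraries). In the deposited files the calls of a day stand merged in 1 list, as their call names show. These lists give coordinates, the names of the merged calls and a score, an enrichment value of the authors whose scaling between libraries is not given in the sources used here. The lists hold no read counts, so the reads behind a call set were not used here and no interval is given.

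Call names were matched to sample titles. PPSs of 20 to 40 nt were left out. Genes came from GENCODE M21, and a PPS counted in a class or gene when it overlapped by 1 nt on the same strand. Genes were tested with 500 exonic nt or more and a dsRNase PPS in at least 1 call set. No p-value was computed over genes or PPSs, which are not replicates. Named genes were up to 3 called members of each list with the largest change of exonic coverage (the largest where none was called), the 6 largest rises and falls among called genes with 3 or more exonic PPSs at a day (without Gm and Rik symbols and without shared exons), the 5 largest rises and falls of intronic counts, the 3 of lncRNA genes, and the highest-scoring sites; a few list members beside these were named after their values were seen. Genes that met the rule but are not reported here were left out of the text. The members and lists were chosen with earlier results of these data known. No PPS lay on the mitochondrial chromosome, so the list of mitochondrially encoded genes had no tested member.

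Python 3.11.15, numpy 2.4.6, pandas 2.3.3, pysam 0.24.0, matplotlib 3.10.9 and RNAfold 2.7.2 were used. The calls were run on simulated call sets, equal random draws of the day 0 PPSs with all exonic PPSs of chosen genes removed. The simulation did not cover partial changes or the unequal size of the day 2 sets. Alternatives were dsRNase-only PPSs, PPSs of both replicates only, scores of 10 or more, 14832 top-scoring PPSs per call set, all lengths, genes of any length, 0.5 of a PPS needed in a class, division by the call set mean, no minimum difference, and each replicate left out.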

Additional observations from a re-analysis of the deposited data

Results flagged for a closer look

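In 4 named genes, dsRNase and ssRNase coverage moved in opposite directions between the days, with both replicates of each nuclease on the same side, and the difference between nucleases was not tested in any of them. Pgam1 changed by -27.27 points with dsRNase, while with ssRNase it had 3.99% and 0.101% at day 0 and 4.39% and 11.3% at day 2. Supt16, a subunit of the histone chaperone FACT, changed by -9.01 points with dsRNase and had 1.35% and 2.26% against 8.08% and 9.13% with ssRNase. Rpl15 changed by -17.12 points with dsRNase and had 3.76% and 0% against 5.70% and 8.41% with ssRNase. The lncRNA gene Gm15265 changed by 6.67 points with dsRNase and had 18.7% and 10.9% against 6.98% in both day 2 sets with ssRNase. Over all genes called with both nucleases, 34 had opposite directions.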

How the results depend on the processing

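No paired analysis was possible because the labels link no replicate of day 0 to a replicate of day 2. The lower 3′ UTR share kept its direction in every alternative run, with -7.335 points when only PPSs of both replicates were kept and -6.53 to -3.65 when single replicates were left out. The splice site share kept no size: -0.686 with all lengths, -0.584 with scores of 10 or more, -2.36 with equal numbers of top-scoring PPSs, 0.584 with PPSs of both replicates, and -0.374 to -0.0608 without single replicates. Leaving out single replicates gave changes of -15411 to 242 in the number of PPSs, -5.63 to 3.82 in the CDS share, 0.0343 to 1.56 in the 5′ UTR share, -1.15 to 7.32 in the intron share and -1.76 to 7.95 in the intron only share.

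Genes with higher exonic coverage numbered 52 with dsRNase-only PPSs, 381 relative to the call set mean and 730 with no minimum difference, and 156 to 333 without single replicates (333 without day 2 replicate 2). Genes with lower coverage numbered 616, 448 and 2674 in the same order, 593 with equal numbers of PPSs, and 943 to 1366 without single replicates. Intronic counts gave 33 higher and 37 lower with dsRNase-only PPSs, 75 and 56 with equal numbers, 9 and 8 with PPSs of both replicates, 97 higher with scores of 10 or more, and 60 to 275 higher and 92 to 188 lower without single replicates. With equal numbers of PPSs 192 genes had higher exonic coverage. The cause of these differences was not tested.

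With dsRNase-only PPSs 46 of 78 named genes stood as before, a count that includes genes not called to begin with, such as Neat1. Another 24 lost their call and 8 turned. The 8 were Hba-a1 (-12.07), Ppox (-0.454), Pcbp1 (6.20), Lyl1 (1.25), Sephs2 (2.78), Paf1 (-0.771), Hist1h3e (-8.73) and Hist1h1b (12.31). Cat turned to 0.689 with equal numbers of PPSs. Relative to the call set mean, Gas5 (13.83), Snhg8 (2.16) and Hist1h1b (1.38) turned and 17 of 69 named genes lost their call. Between 41.1% and 53.3% of dsRNase PPSs also held ssRNase calls, and these are the sites the dsRNase-only alternative leaves out. The lists hold no read counts, and the day 2 sets differ 2-fold in size, which limits every comparison of absolute coverage.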

Other observations

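Ribosome-sized sites, which were left out above, made up 17.5% and 18.8% of the dsRNase PPSs of all lengths at day 0 and 25.2% and 27.9% at day 2. The median length of the remaining dsRNase PPSs was 69 and 67 nt at day 0 and 63 and 65 nt at day 2, and in PPSs touching a splice site it was 94 and 93 nt against 81 and 89 nt. None of these 3 measures overlapped between the days.

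Scarna10, a guide RNA of Cajal bodies on chromosome 6, was fully covered by dsRNase PPSs in both day 2 sets and by none in either day 0 set. With ssRNase PPSs it was 98.8% covered in both day 0 sets and fully covered in both day 2 sets, so its change is one of the nuclease under which the site was called. Mir719 was outside dsRNase PPSs at day 0 and 49.1% covered in both day 2 sets. Polr2g, a subunit of RNA polymerase II, was the other gene of its list called higher, with 6.42% and 0% at day 0 and 9.22% and 7.30% at day 2.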
